A study of Arabidopsis thaliana with 39 samples.

Results

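Roots of Arabidopsis thaliana, accession Columbia-0, were compared at 9 h and at 6 h in every medium of the study, to find the transcript changes between these times that the media shared. The comparison used 24 of the 39 whole-transcript arrays, chosen by their labelled time. It held 12 arrays at 9 h and 12 at 6 h, with 3 in each of 4 media at each time. Plants were wild type and had grown for 10 days on full nutrient medium with 1 mM phosphate. They were then kept on full medium, on medium without phosphate, on medium without iron, or on medium without both, and roots were taken after 6 h or 9 h. The labels describe a move to fresh medium for the 3 deprived groups and do not say whether plants on full medium were moved. Roots at time 0 (3 arrays, full medium) and at 3 h (12 arrays) were not part of the comparison and are given beside it. The labels number the replicates of a group from 1 to 3 without naming separate cultures. The spread behind each p-value is therefore that among numbered samples and may be technical. They give no hour of harvest, so time on the medium and hour of day cannot be told apart. Each RNA sample came from whole roots, in which fewer cells of a type and less RNA per cell cannot be told apart.

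Root transcript levels change over hours for several known reasons. The circadian clock sets a daily cycle in which GIGANTEA (GI) peaks late in the day. Moving seedlings disturbs and wounds roots, and roots that lose phosphate or iron start signalling programmes of their own: low phosphate changes root growth through the ferroxidase LPR1, and low iron acts through bHLH transcription factors and the ubiquitin ligases related to BRUTUS. A change that is alike in full and in deprived media is one that the time points share, and a change tied to a nutrient would differ between the media.

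Between 6 and 9 h, levels rose or fell in a small share of the rows at this threshold. The fit had terms for time and medium, and a transcript cluster (a row of the array, read by 1 set of probes) was called when the limma p-value, adjusted by Benjamini-Hochberg over all 28501 rows, was under 0.05. It called 119 rows (0.418%), of which 82 (0.288%) were higher at 9 h and 37 (0.13%) were lower. An unadjusted p under 0.05 was reached by 3525 rows. Values are the deposited expression values, taken as log2. The median difference, 9 h minus 6 h, was 0.53 over the higher rows and -0.56 over the lower rows, against -0.01 over all rows. Differences of 1 or more, a doubling, were reached by 12 of the higher and 4 of the lower rows. A single gene is annotated to 52 of the called rows, 39 higher and 13 lower. No gene is named for 66, of which 43 were higher and 23 lower, and several genes share 1 row. At the same threshold 118 of the 119 rows were among the 282 called when replicate 2 of the group without both at 9 h was left out, 223 higher and 59 lower. This was the one array of 24 whose omission moved the count by more than 1.5 times. Leaving out a whole medium, which also leaves fewer arrays, gave 31 to 62 calls. Other fits of the same arrays called fewer or more rows, and their counts are in the closing section.

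**Figure D1:**
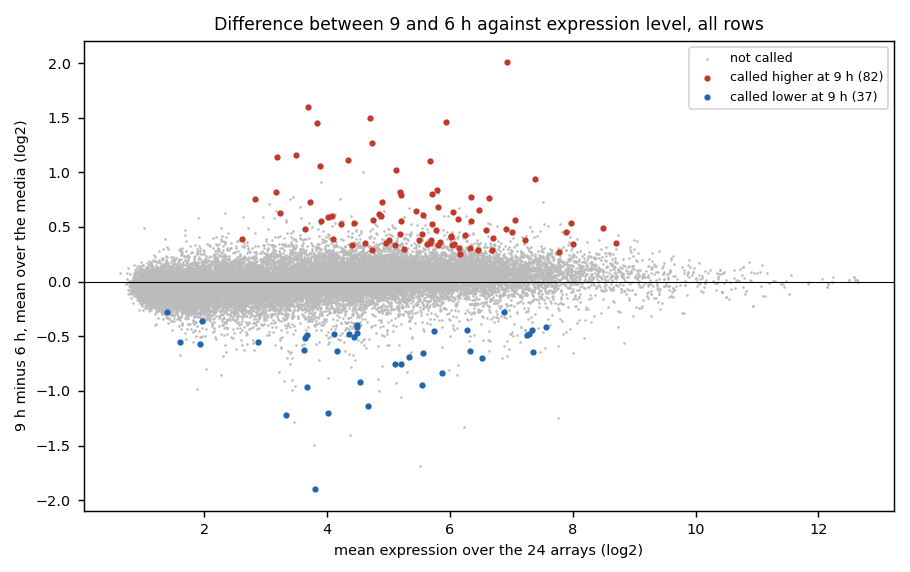
Difference between 9 and 6 h (log2, vertical axis) against mean expression over the 24 arrays (log2, horizontal axis) for every row, with the 82 rows called higher in red and the 37 called lower in blue. The called rows spread over most of the range of levels, and 2 of them, both lower, had a mean under the first quartile of all rows (1.70).

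AT2G23910, a gene of an NAD(P)-binding family related to cinnamoyl-CoA reductase, had the largest called rise among rows with 1 gene. Its level lay between 2.53 and 3.86 at 6 h, with a median of 3.08, and between 3.07 and 5.97 at 9 h, with a median of 4.52. Of the 12 arrays at 9 h, 10 lay above every array at 6 h. The difference was 1.45 (SE 0.24, 2.73-fold, limma adjusted p = 0.00324). Its mean over arrays was 1.62 at time 0, 2.42 at 3 h, 3.11 at 6 h and 4.56 at 9 h, so that it climbed at each step. The difference was 1.02 in full medium, 1.17 without phosphate, 1.53 without iron and 2.07 without both. AT2G23910 was called in all 24 omissions of 1 array and in 12 of 13 other alternatives. It was not called when the medium without both was left out, which also leaves fewer arrays (limma adjusted p = 0.0712).

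CHIL, a chalcone isomerase-like protein of flavonoid synthesis, followed with a different course. It lay between 2.67 and 4.07 at 6 h (median 3.46) and between 3.56 and 5.73 at 9 h (median 4.24), and 8 of the 12 later arrays lay above all earlier ones. The difference was 1.06 (SE 0.23, 2.08-fold, adjusted p = 0.0384). Its mean was 3.76 at time 0 and lower at 3 h, 2.98. CHIL was not called when any 1 of 14 arrays was left out: all of without both at 6 h, replicates 1 and 2 of full medium at 9 h, 2 and 3 of without iron at 6 h, 1 and 2 of without iron at 9 h, 3 of full medium and of without phosphate at 6 h, 2 and 3 of without phosphate at 9 h, and 1 of without both at 9 h. Over the 24 omissions its adjusted p ran from 0.0204 to 0.0844 and its difference from 0.94 to 1.15. AT1G06000, a rhamnosyltransferase that decorates flavonols, lay between 4.59 and 5.59 at 6 h (median 5.10) and between 5.33 and 6.26 at 9 h (median 5.78). It rose by 0.64 (SE 0.11, adjusted p = 0.00366), after a mean of 6.12 at time 0, 5.57 at 3 h and 5.12 at 6 h. A second row of AT1G06000 stood at 0.24 and did not pass (adjusted p = 0.275).

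Other genes with large rises encode enzymes. AT5G22020, of the strictosidine synthase-like family, lay between 3.96 and 5.38 at 6 h (median 4.54) and between 4.82 and 6.50 at 9 h (median 5.66), a rise of 1.02 (SE 0.20, adjusted p = 0.0136). AT1G30080, a glycosyl hydrolase of the beta-1,3-glucanase type, lay between 4.58 and 5.88 at 6 h (median 5.46) and between 5.65 and 6.50 at 9 h (median 6.24). It rose by 0.83 (SE 0.13, 1.78-fold, adjusted p = 0.0017), and 11 of the 12 arrays at 9 h lay above all arrays at 6 h. AT4G09750, a short-chain dehydrogenase, rose by 0.68 (SE 0.12, adjusted p = 0.0053), from a median of 5.49 to 6.06. The times overlapped in all 3 genes, with 8, 11 and 9 of the 12 later arrays above every earlier array.

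AT5G38940, a germin-like protein of the cupin family, was the gene whose rise was least even over the media. In full medium it was 5.67, 6.55 and 6.36 at 6 h and 6.86, 6.95 and 6.77 at 9 h. Without phosphate it was 5.61, 6.04 and 5.51 at 6 h and 7.03, 7.55 and 7.25 at 9 h. Without iron it was 5.80, 6.14 and 5.44, then 6.80, 6.51 and 6.50. In these 3 media every array at 9 h lay above every array at 6 h. Without both it was 6.58, 5.86 and 6.03 at 6 h and 6.33, 5.94 and 6.34 at 9 h, and the times overlapped. The common difference was 0.77 (SE 0.16, adjusted p = 0.0193), made up of 0.67, 1.56, 0.81 and 0.05 in that order. It was not called in a fit of all 39 arrays (adjusted p = 0.15), nor on replicates 1 and 2 alone (0.174), nor when full medium, without phosphate or without iron was left out (0.0967, 0.247 and 0.225, with a difference of 0.51 when without phosphate was left out). Leaving out the medium without both, it was called at 1.01 (0.0137). The test of a difference between the media did not pass (limma F test, unadjusted p = 0.00185, adjusted p = 1.00).

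Regulators and signalling proteins were also among the named rises. AT3G52740, which encodes an inhibitor of the blue-light receptor cryptochrome, lay between 3.82 and 5.44 at 6 h (median 5.03) and between 5.13 and 6.14 at 9 h (median 5.64), a rise of 0.79 (SE 0.16, adjusted p = 0.0219). AT5G35580, a receptor-like cytoplasmic kinase, lay between 5.78 and 6.73 at 6 h (median 6.05) and between 6.38 and 7.18 at 9 h (median 6.89). It rose by 0.66 (SE 0.11, adjusted p = 0.00422), with 7 of the later arrays above all earlier ones in each of these genes. AT3G27150 encodes a kelch-repeat F-box protein whose transcript is a target of a phosphate-responsive microRNA. It and the genes of the next paragraph were chosen after their values were seen. It lay between 4.20 and 4.89 at 6 h (median 4.47) and between 4.80 and 5.29 at 9 h (median 5.04). Its rise was 0.57 (SE 0.08, adjusted p = 0.00054), and by medium 0.53, 0.61, 0.44 and 0.69 in full medium, without phosphate, without iron and without both. The remaining genes of the 12 largest rises were AT1G44608 at 0.73, AT5G24880 at 0.61 and AT4G31355 at 0.60 (adjusted p = 0.00721, 0.00722 and 0.0254). AT5G24880 was not called in the fit of all 39 arrays (adjusted p = 0.0641). AT4G31355 was not called without replicate 1 of full medium or of without both at 9 h (adjusted p up to 0.0568).

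MMT, the methyltransferase that makes S-methylmethionine, was the one named gene among the rises whose groups did not overlap. It lay between 5.98 and 6.64 at 6 h (median 6.38) and between 6.65 and 7.0 at 9 h (median 6.82). The difference was 0.48 (SE 0.07, 1.39-fold, adjusted p = 0.000972). In full medium MMT was 6.28, 6.42 and 6.60 at 6 h and 6.67, 6.83 and 6.65 at 9 h, so that the gap between the times was narrowest there. AT3G09440, a heat shock protein of the HSP70 class, rose by 0.46 (SE 0.08, adjusted p = 0.00401), from a median of 7.67 to 8.14, and was not called in the fit of all 39 arrays (adjusted p = 0.158). AT1G77020, a DnaJ-type co-chaperone, rose by 0.52 (SE 0.09, adjusted p = 0.00681), from 4.04 to 4.52. Of 4 other heat shock proteins and chaperones found by symbol 0 were called (lowest adjusted p = 0.296), beside 0.314% of all genes with a row. Among enzymes, AAE18, a peroxisomal acyl-activating enzyme, rose by 0.53 (adjusted p = 0.0043) and AT3G07270, a GTP cyclohydrolase of folate synthesis, by 0.38 (adjusted p = 0.00839). AT3G02910, of the AIG2-like family, rose by 0.49 (adjusted p = 0.00523) and AT4G06744, a leucine-rich repeat protein, by 0.56 (adjusted p = 0.00961). AT5G53140, a protein phosphatase of type 2C, rose by 0.27 (adjusted p = 0.0166), close to the smallest called rise of 0.25, and was not called after quantile normalization (adjusted p = 0.0515).

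**Figure D2:**
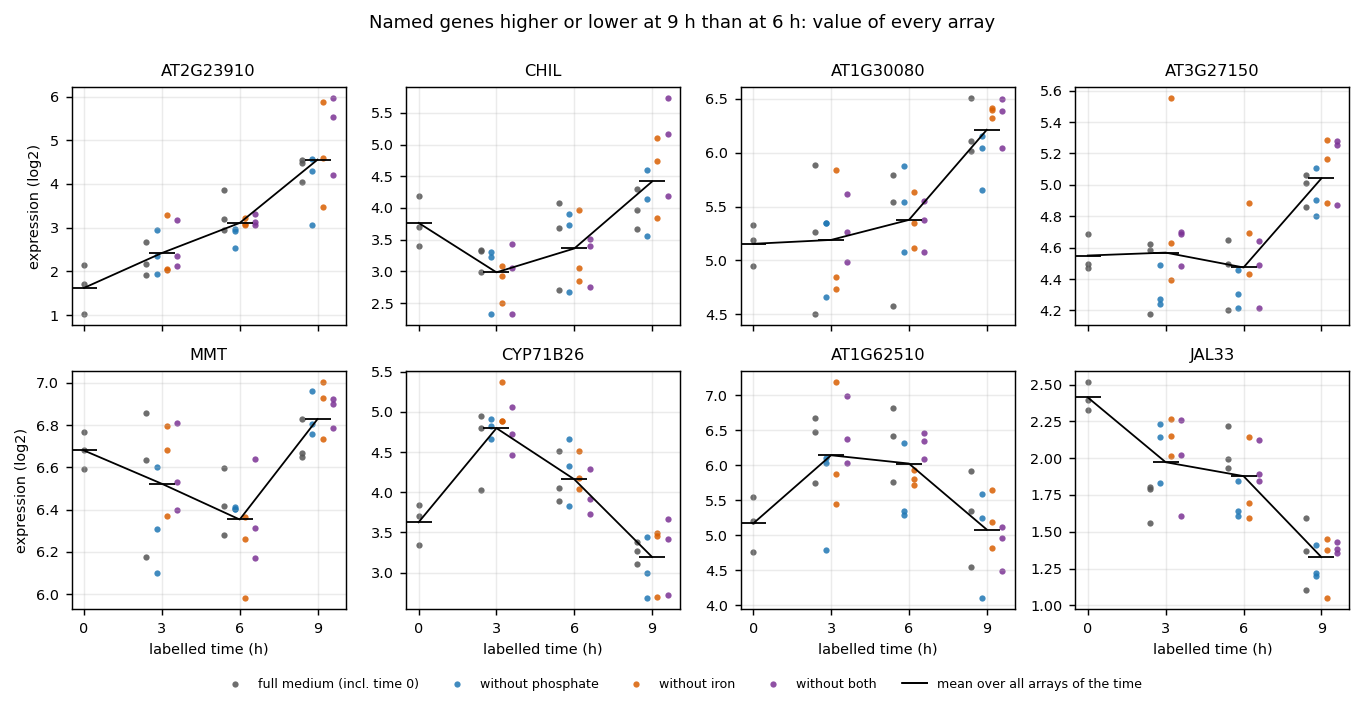
Expression (log2, vertical axis) of 8 genes called higher or lower at 9 h, in every array of the series by labelled time (h, horizontal axis); each point is 1 array, coloured by medium, and the line joins the means over all arrays of a time. In MMT, CYP71B26 and JAL33 no array at 9 h overlaps an array at 6 h, while the times overlap in the other genes shown.

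CYP71B26, a cytochrome P450 enzyme, had the largest fall among rows with 1 gene. It lay between 3.72 and 4.66 at 6 h (median 4.12) and between 2.68 and 3.67 at 9 h (median 3.33), with no overlap. The difference was -0.97 (SE 0.13, 1.96-fold lower, adjusted p = 0.000577). Its mean was 3.63 at time 0, 4.80 at 3 h, 4.16 at 6 h and 3.19 at 9 h, so that the fall from 6 to 9 h followed a higher mean at 3 h. Of the 20 cytochrome P450 genes found by symbol, CYP71B26 was the one called and 0 were called higher, beside 52 called of the 16552 genes with a row (0.314%). Of the 20, 5 stood above 0 and 15 below, with a median of -0.06.

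AT1G62510, a protein of the lipid-transfer and seed-storage albumin family, lay between 5.29 and 6.83 at 6 h (median 6.01) and between 4.1 and 5.92 at 9 h (median 5.16). It fell by 0.95 on the log2 scale (SE 0.19, adjusted p = 0.0188), and 8 of the 12 later arrays were below all earlier ones. AT5G62350, of the family of invertase and pectin methylesterase inhibitors, lay between 4.51 and 4.86 at 6 h (median 4.70) and between 3.70 and 4.53 at 9 h (median 4.22), a difference of -0.51 (SE 0.08, adjusted p = 0.00153). Here 11 of the 12 later arrays were below all earlier ones. Both genes had a higher mean at 3 h than at time 0, 6.14 against 5.17 and 4.97 against 3.83.

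JAL33, a jacalin-type lectin, lay between 1.59 and 2.22 at 6 h (median 1.87) and between 1.05 and 1.59 at 9 h (median 1.37), without overlap although the edges round to the same value. The difference was -0.55 (SE 0.07, adjusted p = 0.00054). Its mean fell at each step, from 2.41 at time 0 to 1.97, 1.88 and 1.33. JAL33 was 1 of the 2 called rows with a mean under the first quartile of all rows, 1.70, where a fold is compressed. AT5G64490 was the other, with a difference of -0.28 (adjusted p = 0.0312). KIN2, a small hydrophilic protein induced by cold and abscisic acid, lay between 1.57 and 2.67 at 6 h (median 2.24) and between 1.26 and 1.85 at 9 h (median 1.67), a difference of -0.57 (SE 0.10, adjusted p = 0.0079). Its close copy KIN1 stood at 0.03 (adjusted p = 0.92), and had a mean under the first quartile. Whether the probes of these near-identical copies share signal was not tested, so both values are uncertain.

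The other named falls were smaller than those of CYP71B26 and AT1G62510. AT1G70790, a C2-domain protein, fell by 0.48 (adjusted p = 0.00312) and AT5G16810, of a protein kinase family, by 0.48 (adjusted p = 0.0166). AT3G18773 and AT1G73760, both RING finger proteins, fell by 0.40 and 0.42 (adjusted p = 0.0236 and 0.0289). AT5G44574 and AT5G65207 fell by 0.56 and 0.66 (adjusted p = 0.00114 and 0.0308). AT5G01750, related to the defence gene LURP1 and chosen after its value was seen, fell by 0.28 (adjusted p = 0.0271). Leaving out 1 array ended the call of AT3G18773 once (replicate 2 of full medium at 9 h, adjusted p = 0.0525), and of AT5G65207, AT1G73760 and AT5G64490 for 10, 12 and 13 of the 24 arrays, with adjusted p up to 0.0692, 0.0602 and 0.0689. AT5G01750 lost its call without replicate 1 of full medium at 9 h, replicate 2 or 3 of without iron at 6 h, or replicate 2 of without iron at 9 h (adjusted p up to 0.0561). The fit of all 39 arrays did not call AT1G73760, AT5G01750, AT5G65207 or AT5G64490 (adjusted p = 0.0617, 0.0965, 0.107 and 0.122). The fit of group means did not call AT5G65207 or AT5G64490 (0.0638 and 0.065), nor did quantile normalization call AT5G64490 (0.0563).

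The largest differences belonged to rows for which no gene is named here. Row 13501251 lay between 4.35 and 7.38 at 6 h (median 6.35) and between 6.41 and 9.10 at 9 h (median 7.88), a rise of 2.01 (SE 0.40, 4.02-fold, adjusted p = 0.0174). Row 13499397 rose by 1.60 (SE 0.24, adjusted p = 0.00165) and row 13460308 2.82-fold (SE 0.32 on the log2 scale, adjusted p = 0.0271). In all 3 the difference was largest without both, at 2.75, 2.37 and 2.84, with full medium at 1.46, 1.18 and 0.87. The test between media did not pass for any of them (unadjusted p = 0.603, 0.208 and 0.0786, adjusted p = 1.00 for each). Row 13460308 was not called without any 1 of 6 arrays, which were replicates 1 and 2 of without iron at 9 h, replicate 1 of without both at 9 h, replicate 2 of without iron at 6 h, and replicate 3 of without phosphate and of without both at 6 h (adjusted p up to 0.0623).

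Row 13474187 fell in every interval. It was 6.24 ± 0.06 (SD, n = 3) at time 0, and its means were 5.05 at 3 h, 3.95 at 6 h and 2.72 at 9 h. At 6 h it lay between 3.48 and 4.34 (median 3.91) and at 9 h between 2.13 and 3.48 (median 2.66), with edges that round alike but do not overlap, a difference of -1.22 (SE 0.13, adjusted p = 4.36e-05). Row 13407918 fell by 1.90 (SE 0.36, 3.73-fold lower, adjusted p = 0.0134, not called in the fit of all 39 arrays) and row 13385930 by 1.20 (SE 0.21, adjusted p = 0.00721). The time 0 arrays of row 13407918 were themselves far apart, with an SD of 1.67. The lowest adjusted p of all rows, 1.86e-06, belonged to row 13431228, chosen after its value was seen. It lay between 2.37 and 3.39 at 6 h (median 2.94) and between 3.71 and 4.37 at 9 h (median 4.12), a rise of 1.16 (SE 0.10), from means of 1.79 at time 0 and 1.71 at 3 h.

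**Figure D3:**
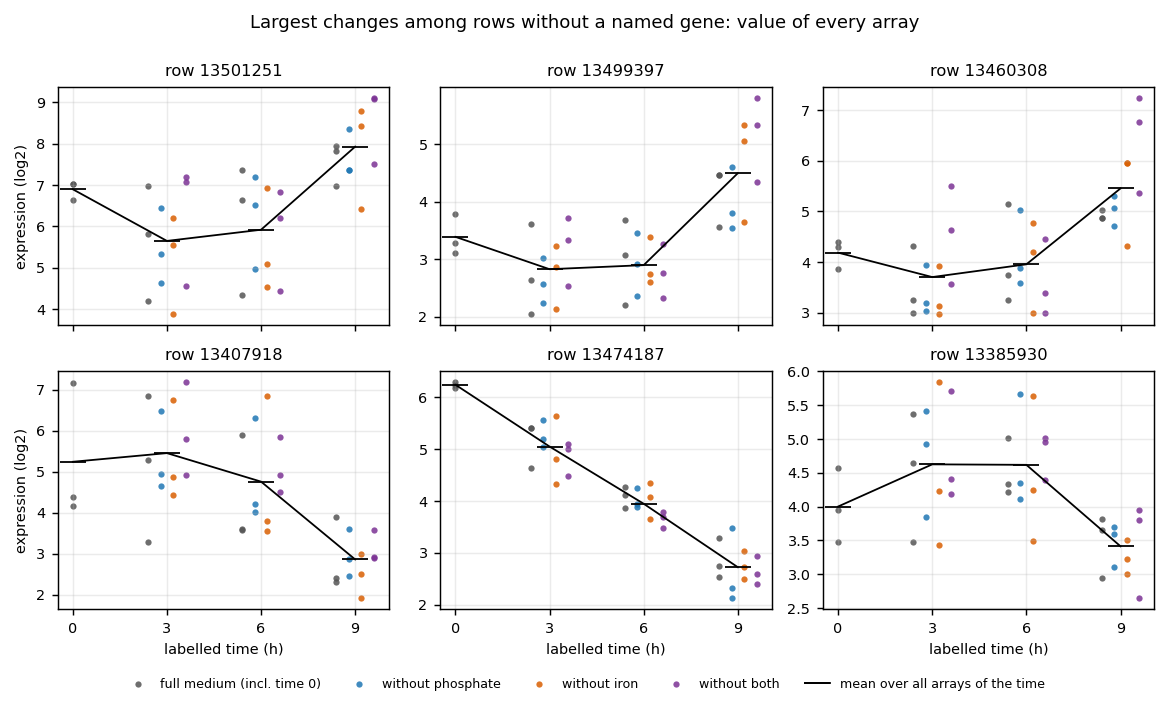
Expression (log2, vertical axis) of 6 rows without a named gene, by labelled time (h, horizontal axis). Among such rows these are the 3 largest called rises and the 3 largest called falls. Each point is 1 array, coloured by medium, and a line runs through the means of all arrays of a time. Row 13474187 falls from 6.24 at time 0 to 2.72 at 9 h with little scatter, while row 13407918 scatters widely at time 0, 3 h and 6 h.

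The 12 and 12 arrays did not overlap in 10 rows (0.0351% of all rows), 6 higher and 4 lower, and all 10 were called. Besides MMT, CYP71B26, JAL33 and rows 13474187 and 13431228 these were rows 13532859, 13419281, 13495571 and 13450563, higher by 1.46, 0.94, 0.82 and 0.55, and row 13350088, lower by 0.63 on the log2 scale. They were chosen after their values were seen. Row 13419281 stood at means of 2.59 at time 0 and 4.29 at 3 h, with medians of 6.99 at 6 h and 7.84 at 9 h. Row 13350088 stood at 2.43 at time 0 and 6.26 at 3 h, with medians of 6.63 and 6.04 at the later times. These 2 rows were thus far above time 0 at both later times, 1 still climbing and 1 past its highest mean.

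Time 0 and 3 h arrays did not enter the calls and describe what preceded the change. Of the 82 rows higher at 9 h, 50 had a lower mean at 3 h than at time 0 and 32 a higher one, while 54.1% of all rows were lower at 3 h. At 9 h, 73 of the 82 had a mean above time 0, beside 13558 of all 28501 rows. The median difference of the 82 from time 0 was -0.06 at 3 h, -0.17 at 6 h and 0.38 at 9 h. Of the 37 rows lower at 9 h, 24 had a higher mean at 3 h than at time 0, beside 13090 of all rows. At 9 h, 29 of the 37 had a mean below time 0, beside 14943 of all rows. The medians of the 37 were 0.19, 0.06 and -0.42, against -0.02, -0.01 and -0.01 over all rows. A call favours rows whose 6 h mean is low before a rise or high before a fall. The reverse holds for the 9 h mean. The 6 h and 9 h medians, counts at 9 h and step counts below are thus partly built in and only describe. Means that climbed from time 0 to 3 h and from 3 to 6 h were seen in 12 of the 82 higher rows, AT2G23910 among them, beside 19% of all rows. Means that fell over both steps preceded the rise in 27 of the 82, AT1G06000 among them, beside 18.6% of all rows. Of the 37 lower rows, 10 fell over both steps, with JAL33 and row 13474187 among them, and 7 climbed.

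**Figure D4:**
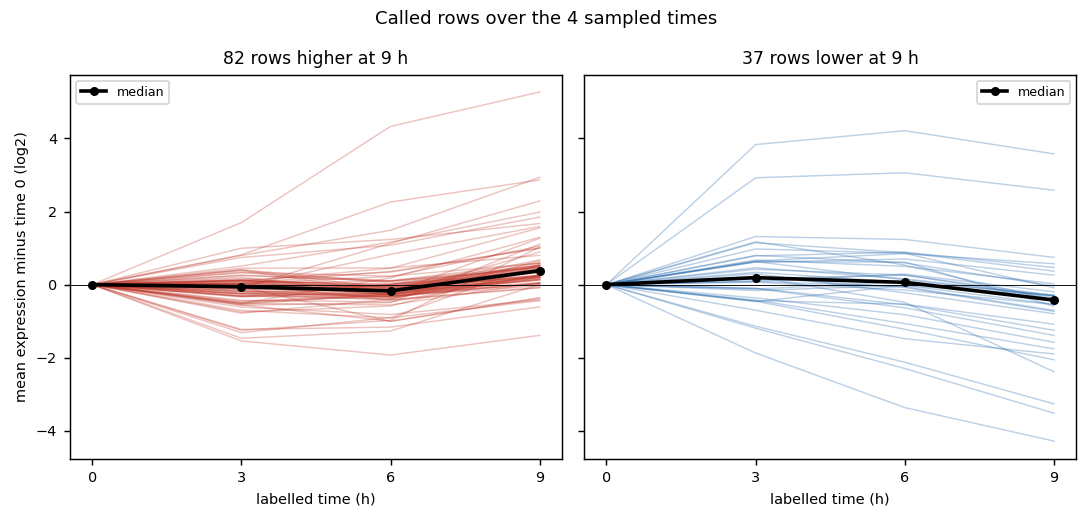
Mean expression minus time 0 (log2, vertical axis) by labelled time (h, horizontal axis) for the 82 rows called higher (left) and the 37 called lower (right); thin lines are rows and the black line is their median. The median of the higher rows is -0.17 at 6 h and 0.38 at 9 h, and that of the lower rows is 0.06 and -0.42.

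The change was then set out medium by medium. All 37 lower rows had a negative difference in each of the 4 media, and 81 of the 82 higher rows had a positive difference in each, the other in 3. Over all rows 22.5% had 1 sign in the 4 media. Since the same arrays made the calls, this describes the called rows and supports nothing. The median of the higher rows was 0.46 in full medium, 0.48 without phosphate, 0.61 without iron and 0.56 without both. That of the lower rows was -0.62, -0.64, -0.54 and -0.48.

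Taken alone, each medium gave few calls, with 3 arrays against 3. In full medium limma called 0 rows (0%). There 1559 rows had an unadjusted p under 0.05, and the lowest adjusted p was 0.0656. With the replicate number as a block it called 2, row 13431228 (1.38, adjusted p = 0.0492) and row 13425547 (0.97, adjusted p = 0.0492). Without phosphate it called 2 rows (0.00702%), both higher and both also with the block. These were AT5G38940 (1.56, SE 0.23, adjusted p = 0.0215) and row 13430665 (0.99, SE 0.14, adjusted p = 0.0152). Neither was called without replicate 1 or 3 at 6 h or replicate 3 at 9 h of that medium, when limma called 0 rows, and it called 1 row without replicate 2 at 6 h. Without iron limma called 0 rows (0%, with unadjusted p under 0.05 in 1630) and without both 0 rows (0%, 1731). Without both, the block called row 13499397 (2.37, adjusted p = 0.00249), and without iron the block called 0 rows. Array weights, the 39-array fit, the filter on dim rows and median centring each called 1 row in full medium, and array weights also called 1 without both. Other settings are given in the closing section.

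**Figure D5:**
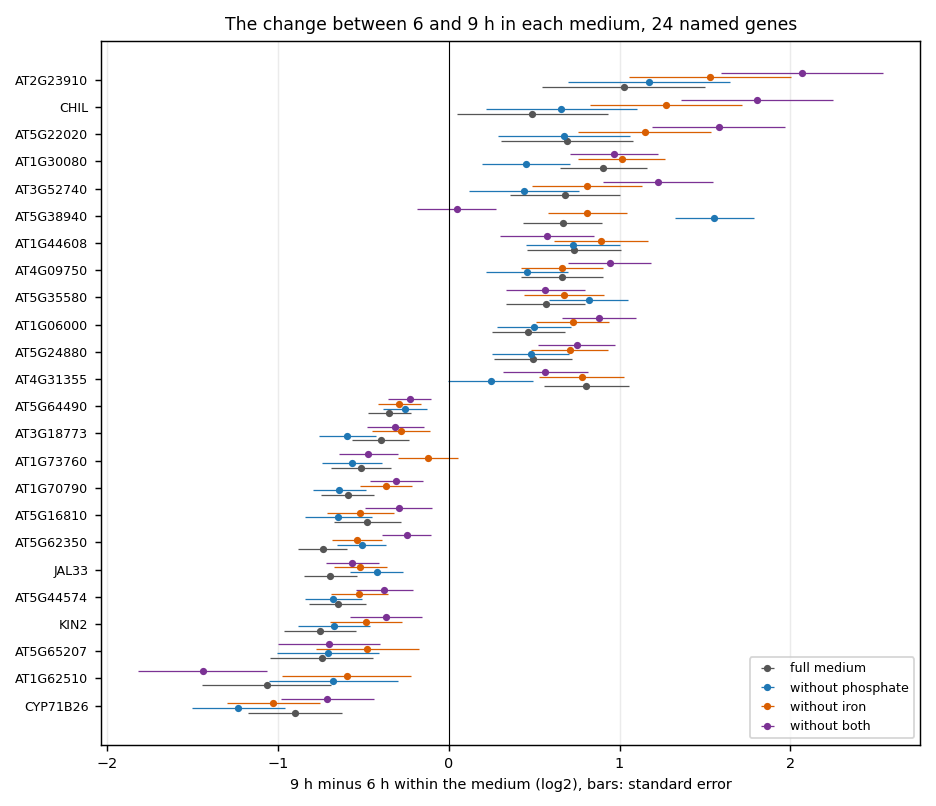
Difference between 9 and 6 h (log2, horizontal axis) in each medium for the 12 genes with the largest called rise and the 12 with the largest called fall; points are the 4 media and bars are standard errors from the limma fit. All points lie on the side of the common change, with AT5G38940 spread from 0.05 without both to 1.56 without phosphate.

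The change was not shown to differ between the media. The limma F test of time by medium called 0 of 28501 rows (0%), although 799 had an unadjusted p under 0.05, and the lowest adjusted p was 0.115. The contrast of phosphate with time called 0 (0%, with unadjusted p under 0.05 in 633) and that of iron with time called 0 (0%, 1117). Among the 119 called rows, 2 had an unadjusted F test p under 0.05. The 5 genes with the lowest F test p were WRKY22, AT5G57070, AT2G23700, AT3G02890 and AT3G18330 (unadjusted p = 0.000464, 0.000505, 0.000513, 0.000735 and 0.00108, adjusted p = 1.00 for each). WRKY22, a defence-related transcription factor, stood at 0.42 in full medium, -0.34 without phosphate, -0.50 without iron and -0.07 without both. None of these 5 was called in the common comparison.

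Pathway lists were thinly measured, because 41 of 252 entries had a row annotated to that 1 gene. None of the 41 was called in either direction in the fit of the 24 arrays, beside 52 called of the 16552 genes with a row (0.314%). At that share a set of this size may hold no called gene, so the lack of calls says little about the lists. The median difference of the 41 was 0.00, beside -0.01 over all rows. Of the 8 iron deficiency genes measured of 33, 6 stood above 0 and 2 below, with a median of 0.15. In it AT1G74770, a ubiquitin ligase related to BRUTUS, stood at 0.40 (SE 0.13, adjusted p = 0.179), PYE, a bHLH regulator, at 0.22 (adjusted p = 0.304) and BHLH101 at 0.08 (adjusted p = 0.728). BHLH101 had a mean of 1.445 over the 24 arrays, under the first quartile of all rows (1.70), where a fold is compressed. Of the 27 phosphate starvation genes 2 were measured, LPR1 at 0.38 (SE 0.09, adjusted p = 0.0695) and LPR2 at -0.08 (adjusted p = 0.752). LPR1 came nearest to the threshold of all members of the lists.

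Clock genes were represented by 1 of 14 morning-expressed entries and 5 of 31 day- and evening-expressed ones. GI lay between 8.09 and 8.51 at 6 h (median 8.25) and between 7.46 and 8.49 at 9 h (median 7.98). Its difference was -0.35 (SE 0.09, adjusted p = 0.107), which did not pass, though 10 of the 12 later arrays lay below every earlier array. Without replicate 1 of without phosphate at 9 h it was called (-0.41, adjusted p = 0.0172), and over the 24 omissions its adjusted p reached 0.18. Its mean was 7.02 at time 0, 8.09 at 3 h, 8.28 at 6 h and 7.93 at 9 h. COR27, a cold-regulated gene under clock control, stood at 0.27 (adjusted p = 0.224), AT4G33980, its relative, at -0.16 (adjusted p = 0.581), and AT1G26790, of the Dof family, at -0.14 (adjusted p = 0.445). AT1G26790 had a mean of 1.406 over the 24 arrays, also under the first quartile of all rows (1.70). The auxin list, with 6 of 19 measured, had a median of -0.02, and its amido synthetase GH3.3 stood at 0.08 (adjusted p = 0.889). The touch, cold and dehydration list, with 6 of 20, had a median of 0.00. The lists for cell cycle, nitrate, sulfur deficiency and sugar starvation had 3, 2, 2 and 1 genes measured, none called, with medians of -0.07, 0.02, -0.05 and 0.00. Among larger families found by symbol, 0 of 48 UDP-glycosyltransferases, 0 of 23 expansins and extensins, 0 of 16 glutathione transferases and glutaredoxins and 0 of 15 pectin and xyloglucan enzymes were called, with medians between -0.04 and 0.00. The called rhamnosyltransferase gene AT1G06000 was not among the 48 found by symbol. Over all genes with a row 0.314% were called, so a lack of calls in families and lists of this size says little about them.

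Markers of cell types were few. Of 9 shoot markers RCA and LHCB4.1 were measured, and their mean level ran from 4.99 to 7.56 over the arrays at 6 h and from 5.05 to 7.01 at 9 h. Of 6 root hair markers the expansin genes EXPA7 and EXPA18 were measured, at 4.19 to 5.11 and 4.16 to 5.43. The 1 cortex marker, AT1G62500, lay between 1.11 and 1.70 and between 1.06 and 1.72, and of the markers of endodermis, stele and root tip 0 were measured. Of all rows, 85.1% lay below the level of the shoot markers, 67.6% below that of root hair and 17.5% below that of cortex. None of the 5 markers was called, beside 0.314% of all genes with a row, and the part of other cells in the changes was not tested. Array medians lay between 3.36 and 3.45. The first principal component of the 24 arrays, with 26% of the variance, set every array of replicate 3 apart from those of replicates 1 and 2, and on the arrays numbered 1 and 2 alone, a choice made after seeing the data, 62 rows were called, 45 higher and 17 lower, 44 of them among the 119.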

How the data were processed

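Total RNA of roots, 100 ng per sample, was labelled with biotin and hybridised to whole-transcript arrays, per the labels' protocols. The deposited table holds 1 normalized value per row and array. The submitters' processing notes name GCRMA together with Affymetrix Expression Console and Transcriptome Analysis Console. They state no log base, and the deposited values were taken as log2 from their range (0.141 to 12.8). No probe signals or background were used here, and the number of arrays limits the precision. All columns of the table matched a sample.

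Differences were fitted with limma 3.58.1 in R 4.3.3 on the 24 arrays at 6 h and 9 h, with terms for time and medium, and with means of the 8 groups for single media and interactions. P-values were adjusted by Benjamini-Hochberg over all rows, without a filter. The fits were tested on simulated data with independent noise in each array. These held no effect of replicate number, so they cannot show how such an effect bears on the counts.

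Rows were named from the platform annotation (16746 rows with 1 gene, 758 with several, 10997 with none). Symbols were updated through RefSeq (TAIR10.1, names only), where 16601 matched. Where a gene had several rows, that of highest mean was used. The genes named are the 12 largest called differences of each sign, the 3 largest of each sign without a gene, called members of lists and families (up to 2 per family), the 5 lowest interaction p-values, and GI, AT4G33980 and AT1G26790. Others were named after their values were seen. Families were searched in symbols and synonyms, which finds a part of them, and 1 pattern that matched unrelated words was dropped. The comparison, lists and families were chosen with earlier results of these data known. Promoter sequences were not used here. Alternatives were other normalizations, filters, weights, models, thresholds and omissions of arrays or media. Arrays of the same medium and number were checked for pairing, and every pair passed in full medium, without phosphate and without iron (correlation of deviations from group means 0.145 or more) but not without both. The blocked counts are therefore given beside single media, and for the common change in the closing section.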

Additional observations from a re-analysis of the deposited data

Results flagged for a closer look

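Among the rows already named, 4 had every array at 9 h above every array at 6 h in 1 or more media and below in another, a pattern held by 426 of all 28501 rows (1.49%). WRKY22 stood at 0.42 in full medium and -0.50 without iron. AT2G23700 stood at 0.31 without phosphate, 0.72 without iron and 0.34 without both, and at -0.22 in full medium. AT3G18330 stood at 0.49 without phosphate and -0.55 without iron. Row 13430665, without a named gene, was 4.26, 4.34 and 4.45 at 6 h and 5.51, 5.30 and 5.23 at 9 h without phosphate (difference 0.99), and 5.14, 5.20 and 4.90, then 4.80, 4.56 and 4.54, without both (difference -0.45). These values are log2 differences, 9 h minus 6 h. The limma F test of time by medium passed for none of them (adjusted p = 1.00, 1.00, 1.00 and 0.115). The 3 named genes were picked by their low unadjusted p in that same test, and row 13430665 by its call without phosphate, so opposite directions are partly built in.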

How the results depend on the processing

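The common change (119 rows, 82 higher and 37 lower) stayed within 1.5 times under the 39-array fit (108), group means (105), quantile normalization (118), median centring (157) and a trended robust prior (146). The filter on dim rows called 201 (158 higher) and array weights 212 (158 higher). An adjusted p under 0.01 left 48 rows (32 and 16), and a minimum fold of 1.5 left 50 (33 and 17), which are parts of the 119 by construction. Leaving out full medium gave 62 (48 and 14), without phosphate 39 (28 and 11), without iron 31 (18 and 13) and without both 41 (24 and 17), all on fewer arrays. The arrays of replicates 1 and 2 alone, a choice made after the data were seen, gave 62 (45 and 17). Leaving out each array in turn gave 91 to 282 rows, 60 to 223 higher and 27 to 59 lower. Of the 119 rows, 79 were called in each of the 24 omissions, 55 higher and 24 lower. In every alternative that tested them, other than the stricter thresholds, 14 were called (9 higher, 5 lower): AT3G27150, MMT, JAL33, CYP71B26 and 10 rows without a named gene. Direction was followed for 58 of the 119 rows, and none of these calls changed direction. Over these 58 rows, the uncalled ones also followed, and all settings with the stricter thresholds, 521 results lost a call and 2083 kept their side of the threshold. A call was gained by 2 (GI without replicate 1 of without phosphate at 9 h, AT2G23700 without full medium). At the stricter thresholds of adjusted p and fold, where calls can only be lost, 24 and 21 of the 58 were kept.

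Adding the replicate block gave 278 called rows, 185 higher and 93 lower, and all 119 were among them. In 10 of 12 pairs of the same medium and number the deviations correlated above 0.1 (range -0.058 to 0.442), and 22 of 24 arrays correlated best with their own number, a hint from the data and not the design. Since 2 pairs without both fell short, the numbers were not taken as pairs for the common change, a decision made with the blocked count known.

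Within media, full medium called 1 row under the 39-array fit, median centring, the filter and array weights, and 2 with the block. The medium without phosphate called 1 under the 39-array fit. The medium without both called 1 with the block and 1 with array weights. The interaction called 1 under quantile normalization. Leaving out each array gave 0 to 2 rows in full medium, 0 to 3 without phosphate, 0 to 1 without iron, 0 to 1 without both, 0 to 1 for the interaction, and 0 for phosphate or iron by time. The cause of these shifts was not tested. In lists and families 1 member was called, also with the row of lowest p per gene.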
